A study of Homo sapiens with 8 samples.

Results

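The genes of 10 plasma cell transcription factors, among them factors that plasma cells switch off, were followed in RNA sequencing (RNA-seq) of the human multiple myeloma line LP-1: IRF4, PRDM1, XBP1, IKZF1, IKZF3, POU2AF1, MYC, MAF, PAX5 and BCL6. They were chosen by name from what is known of plasma cells and myeloma, and make up 10 of the 18564 genes in the expression table. Earlier results of these data were known when the factors and the 15 other gene lists below were chosen. Shares of a list set beside the share of all genes are therefore descriptions. Of the 10 factors, 9 passed the filter on low counts. PAX5 did not, and is described by its counts alone.

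LP-1 is an established line derived from a patient with myeloma, the cancer of plasma cells. There were 4 conditions with 2 libraries each. WT vehicle was the parental line with DMSO, the solvent of the drug, by its sample titles, although the treatment label of these libraries reads untreated, and WT SI-2 was the parental line given 25 nM SI-2 for 24 h. BR vehicle was the bortezomib-resistant (BR) derivative, kept with the proteasome inhibitor bortezomib for 2 months and given DMSO, and BR SI-2 was the same derivative given 25 nM SI-2 for 24 h before harvest. SI-2 is a small-molecule inhibitor of the steroid receptor coactivator SRC-3, and the study asked what SRC-3 inhibition does in drug-resistant myeloma cells. The BR condition is thus a derivative of 1 line at 1 time point, and bortezomib exposure and resistance cannot be told apart in it. The study calls its RNA-seq replicates biologically independent experiments, while the labels do not say which libraries were grown or prepared together, so p-values measure the spread between these libraries.

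A plasma cell arises when a B cell shuts down the programme held by PAX5 and BCL6 and turns on IRF4, PRDM1 and XBP1, which together drive antibody secretion. IRF4 and PRDM1 set the identity of the cell, and XBP1 enlarges the endoplasmic reticulum so that immunoglobulin can be folded and exported. Myeloma cells remain dependent on much of this circuit, above all on IRF4, and often add high MYC or MAF to it. IKZF1 and IKZF3 sit upstream of IRF4 and MYC in myeloma and are the proteins that lenalidomide directs to the cereblon ubiquitin ligase.

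The libraries held 17997771 to 18570027 estimated counts each. The line carried plasma cell transcripts of antibody secretion, with JCHAIN (the joining chain of polymeric antibody) at 3350 FPKM (fragments per kilobase of transcript, scaled to library size), MZB1 (a chaperone of immunoglobulin assembly) at 444 FPKM, TNFRSF17 (BCMA) at 283 FPKM and CD38 at 41.4 FPKM, as means over 8 libraries. SDC1, which encodes the plasma cell surface marker CD138, was lower at 7.79 FPKM and SLAMF7 was at 0.421 FPKM. NSD2 and FGFR3, the genes raised by the translocation that LP-1 is known for, had means of 89.4 and 245 FPKM. The library BR SI-2 2 stood apart in markers of other cell types. All 8 stromal cell markers examined (collagens, decorin, lumican and others) had reads there, with a summed level of 29.7 FPKM against 0.15 to 0.54 FPKM in the other 7 libraries, and COL1A1 reached 1032 counts. T and NK cell markers summed to 8.11 FPKM in it against 3.52 to 4.77 FPKM elsewhere, while monocyte markers summed to 3.84 FPKM against 1.72 to 3.23 FPKM. The values of the factors, and of some of the other genes named for a difference, are therefore also given without this library.

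Per kilobase, XBP1 was the most abundant of the factors and PAX5 was almost absent. The mean FPKM over 8 libraries was 497 for XBP1, 184 for MYC, 175 for IRF4, 88.6 for POU2AF1, 53.1 for MAF, 49.6 for PRDM1, 23.1 for IKZF1 and 20.5 for IKZF3. BCL6 had a mean of 0.304 FPKM and PAX5 of 0.00125 FPKM. Ranked by mean FPKM among all 18564 genes, XBP1 stood at 129, MYC at 317 and IRF4 at 334, whereas IKZF3 stood at 3849 and BCL6 at 12923. The order had 3 unresolved steps. The library ranges of MYC and IRF4 overlapped, as did those of MAF and PRDM1 and those of IKZF1 and IKZF3, and every other neighbouring pair was separated in all 8 libraries.

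**Figure D1:**
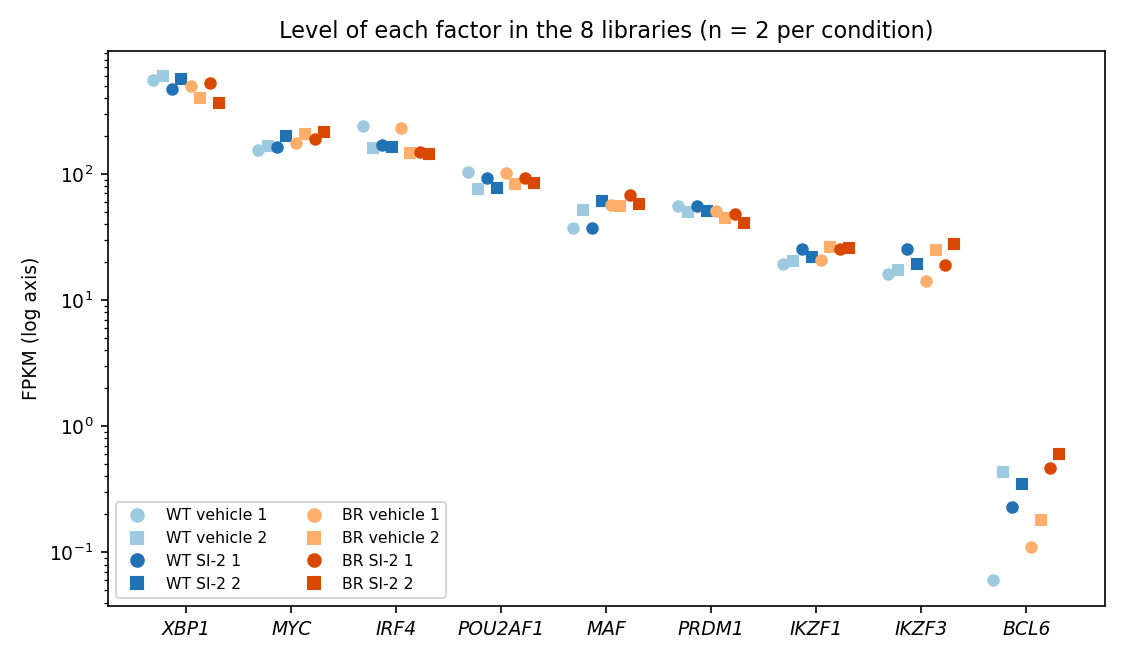
Level of 9 factors in FPKM (log axis) in each of the 8 libraries, coloured by condition, with circles for replicate 1 and squares for replicate 2. Factors are ordered by mean level from XBP1 at 497 FPKM to BCL6 at 0.304 FPKM, and PAX5, at 0 in 7 libraries, is not drawn.

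The first comparison asked whether the resistant derivative differs from the parental line in these factors. None of the 9 tested factors differed between the 4 BR and the 4 WT libraries at an adjusted p under 0.05 (edgeR quasi-likelihood test with Benjamini-Hochberg adjustment over 13520 genes), where 49 genes or 0.362% of all genes passed. None had an unadjusted p under 0.05 in this fit either, against 14.4% of all genes (1942 genes). MAF came out 1.25-fold higher in BR, XBP1 0.806-fold and PRDM1 0.854-fold, and these 3 had the lowest unadjusted p-values of the set, at 0.0534, 0.058 and 0.0519. Other edgeR settings moved these 3 p-values to either side of 0.05. With the replicate block, where 155 of all genes passed the adjustment, they were 0.0430, 0.0456 and 0.0118 in the same order. With treatment as a term they were 0.0616, 0.0685 and 0.0611. The means were higher in BR for 6 factors and lower for 3, and the median log2 difference of the 9 was 0.087, beside 0.0042 for all genes. No factor had BR and WT libraries that did not overlap, a pattern met by 3.79% of all genes in the higher and 4.36% in the lower direction. In RNA from whole cultures, fewer cells with a transcript and less RNA per cell cannot be told apart.

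The same question was put to the vehicle libraries alone, 2 against 2, in a fit of all 4 conditions over 13896 genes. No gene in the transcriptome passed an adjusted p under 0.05 (0%), although 540 genes (3.89%, with 1.53% higher and 2.36% lower in BR) had an unadjusted p under 0.05 and DESeq2 called 28. None of the 9 factors was among the 540. IKZF1, MYC and MAF were higher in both BR vehicle libraries than in both WT vehicle libraries, as were 15.6% of all genes. XBP1 was lower in both, as were 17.5% of all genes. With 2 libraries a side such separation is common, and the adjusted p of these 4 factors was 0.967 each in the edgeR test.

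SI-2 was then compared with vehicle within each line. No factor and no other gene passed an adjusted p under 0.05 in BR (0%) or in WT (0%) in the edgeR test, where 167 and 74 genes had an unadjusted p under 0.05 (1.2% and 0.533%) and DESeq2 called 1 gene in each line. In BR, BCL6 was the only factor with both SI-2 libraries above both vehicle libraries, as in 10.7% of all genes. In WT, IKZF1 and IKZF3 were the factors with both SI-2 libraries above both vehicle libraries, as in 10.9% of all genes. The difference between the SI-2 effects in BR and in WT was also tested, and no factor and no other gene passed (0%, with 74 genes at an unadjusted p under 0.05 and 1 gene called by DESeq2). A p above the threshold does not show that the factors stayed the same, and the intervals given with each factor show what size of change these libraries leave room for.

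**Figure D2:**
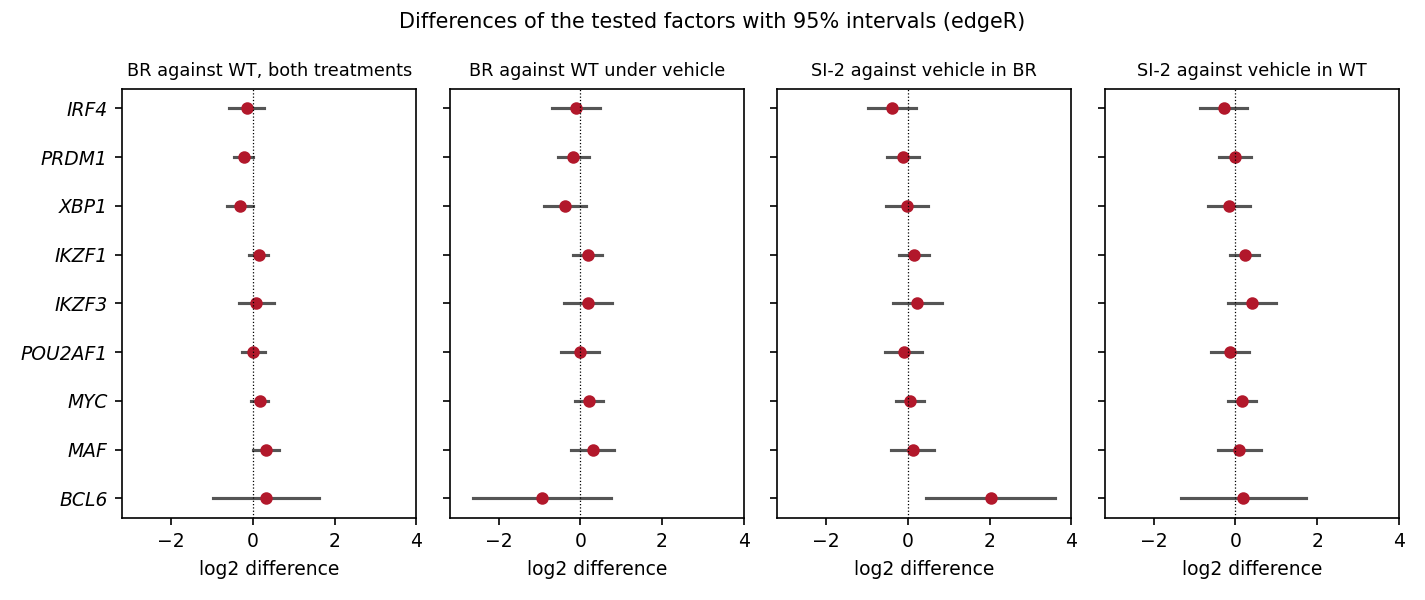
Log2 difference (point) and 95% interval (line) of the 9 tested factors in 4 comparisons, first group minus second, from the edgeR fits. Intervals cross 0 except that of BCL6 under SI-2 in BR, which runs from 0.45 to 3.61 and has an adjusted p of 1.

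IRF4, the factor on which myeloma cells depend most, had a high value in a single library of each vehicle condition. Its TMM-scaled CPM (counts scaled to a common library size and corrected for composition) were 1315 and 876 for WT vehicle, 911 and 884 for WT SI-2, 1269 and 761 for BR vehicle, and 820 and 729 for BR SI-2, given as replicates 1 and 2. The 2 replicate 1 vehicle libraries were thus the highest of the 8, 1 in each line, and the other 6 lay between 729 and 911 CPM. BR and WT overlapped widely. The log2 difference of BR against WT was -0.16 ± 0.192 (SE, 4 against 4 libraries), with a 95% interval of -0.58 to 0.27 and an adjusted p of 0.731 by edgeR.

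Under SI-2, the IRF4 difference from vehicle was -0.39 ± 0.257 on the log2 scale in BR and -0.29 ± 0.257 in WT (SE, 2 against 2). Both rested on the high vehicle library. Without BR SI-2 2 the value in BR was -0.31, and that of BR against WT was -0.069. Without WT vehicle 1 the value in WT was 0.035, and without BR vehicle 1 the value in BR was 0.011. Transcript NM_002460 took 63.1% ± 3.61 (SD, n = 8) of the estimated IRF4 counts and NM_001195286 took 36.4% ± 3.81, with 63.5% and 62.6% for NM_002460 in WT and BR.

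Known IRF4 target genes of myeloma gave no call. This list includes the factors PRDM1 and MYC, and PIM2, which is also counted among the plasma cell genes below. Of 9 tested, 7 had a lower and 2 a higher mean in BR than in WT, with a median log2 difference of -0.084, and 1 had an unadjusted p under 0.05 (8.08% of all genes in that direction). That gene was CANX, which encodes the chaperone calnexin of the endoplasmic reticulum, at 436, 455, 423 and 456 FPKM in WT and 385, 380, 374 and 349 FPKM in BR. All 4 BR libraries lay below all 4 WT libraries for CANX, a separation met by 4.36% of all genes in that direction, and its log2 difference was -0.28 ± 0.0828 with an adjusted p of 0.191 by edgeR, or -0.23 without BR SI-2 2.

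Partner factors of IRF4 and of the octamer proteins, which share composite DNA sites with them, ran from 0.0075 FPKM for BATF and 0.0125 FPKM for SPI1 (PU.1) through 2.76 FPKM for SPIB to 129 FPKM for MEF2C. Of 10 partners tested in the BR against WT fit, 7 had a higher and 3 a lower mean, with 1 at an unadjusted p under 0.05, higher in BR as were 6.29% of all genes. POU2F1 (Oct-1) and TCF4 (an E protein) had the largest differences among those of at least 5 FPKM, at 0.34 ± 0.226 and -0.24 ± 0.118 on the log2 scale, with adjusted p of 0.509 and 0.381 by edgeR.

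PRDM1 encodes BLIMP1, the repressor that silences the B cell programme. Its CPM values were 290 and 257 for WT vehicle, 283 and 263 for WT SI-2, 264 and 222 for BR vehicle, and 249 and 199 for BR SI-2. Every replicate 1 library exceeded the replicate 2 library of its condition, and 3 of the 4 BR libraries lay below all 4 WT libraries, while BR vehicle 1 lay within the WT range. The log2 difference of BR against WT was -0.23 ± 0.104 (95% interval -0.46 to 0.0022, adjusted p 0.353 by edgeR). Without BR SI-2 2, the lowest library, it was -0.16 with an adjusted p of 0.614. SI-2 gave -0.12 ± 0.172 in BR, or 0.035 without BR SI-2 2, and -0.0024 ± 0.172 in WT.

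Most PRDM1 reads were assigned to a pair of transcripts. NM_001198, the full-length alpha form, took 63.0% ± 7.46 (SD, n = 8) of the estimated counts and NM_182907, the shorter beta form that lacks part of the amino-terminal region, took 28.8% ± 2.86. The beta share was 30.4% ± 2.98 in WT and 27.2% ± 1.9 in BR (SD, n = 4 each), given as a description with no test.

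XBP1 is controlled in secretory cells through its promoter and through an unusual splicing event. The enzyme IRE1, a sensor of unfolded proteins, cuts a 26-base intron out of the XBP1 messenger RNA in the cytoplasm. This changes the reading frame and turns a protein of 261 residues into the active factor of 376 residues. The intron lies in exon 4 of 5, inside the coding sequence, on the minus strand at chr22:28796124-28796149 (GRCh38, GENCODE annotation, since the study's own build, hg19, was not used for sequence). Both forms are printed 5′ to 3′ with 30 bases on each side, because the spliced share below rests on reads that tell them apart. Capitals mark the intron that IRE1 removes.

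XBP1 unspliced: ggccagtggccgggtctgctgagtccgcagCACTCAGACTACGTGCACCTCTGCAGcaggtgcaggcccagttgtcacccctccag
XBP1 spliced: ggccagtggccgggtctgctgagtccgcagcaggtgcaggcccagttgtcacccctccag

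Total XBP1 was lowest in the replicate 2 libraries of BR. Its CPM values were 1024 and 1091 for WT vehicle, 840 and 1044 for WT SI-2, 929 and 701 for BR vehicle, and 967 and 627 for BR SI-2. Both replicate 1 libraries of BR lay within the WT range, and both replicate 2 libraries of BR lay below every other library. The log2 difference of BR against WT was -0.31 ± 0.146 (95% interval -0.63 to 0.013, adjusted p 0.365 by edgeR), and it was -0.21 without BR SI-2 2. SI-2 gave -0.032 ± 0.228 in BR and -0.17 ± 0.228 in WT, within the spread of the libraries, and the value in BR was 0.25 without BR SI-2 2.

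The spliced share of XBP1 split the BR libraries in the same way. Spliced transcripts (NM_001079539) made up 12.4% and 15.5% of the estimated XBP1 counts for WT vehicle, 12.9% and 10.3% for WT SI-2, 19.3% and 8.04% for BR vehicle, and 19.9% and 6.34% for BR SI-2. The 4 WT libraries lay between the replicate 1 libraries of BR, which were the highest, and the replicate 2 libraries of BR, which were the lowest. The mean was 12.8% ± 2.13 in WT and 13.4% ± 7.2 in BR (SD, n = 4 each), a difference of 0.605 percentage points with a two-sided exact permutation p of 0.886, where 70 regroupings allow no p below 0.0286. Within BR the share was 19.6% ± 0.394 in the replicate 1 and 7.19% ± 1.2 in the replicate 2 libraries (SD, n = 2 each), and within each replicate number the vehicle and SI-2 libraries of BR differed by less. In counts, spliced XBP1 was 3175 and 3506 in the replicate 1 libraries of BR and 1063 and 764 in the replicate 2 libraries. These are estimates that divide reads between forms, not direct counts of junction reads.

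XBP1 acts on genes of protein folding and export in the endoplasmic reticulum, and 28 such genes were examined, all of them above the filter. Their means were lower in BR than in WT for 28 of 28, with a median log2 difference of -0.469 beside 0.0042 for all genes. None passed an adjusted p under 0.05, and 14 of 28 had an unadjusted p under 0.05, all lower, against 8.08% of all genes in that direction. With scaling by library size alone 27 of 28 XBP1 target genes were lower, and the count at an unadjusted p under 0.05 was 22 without BR vehicle 1 and 23 with the replicate block, where the share of all genes in that direction was 10.2% each. At an adjusted p under 0.05 these settings called 4 and 1 of the 28, and 86 and 155 of all genes. The largest differences were those of CRELD2, a stress-induced protein of the endoplasmic reticulum, at -0.87 ± 0.21 (adjusted p 0.128), and HSPA5, the main chaperone BiP, at -0.78 ± 0.281 (adjusted p 0.252), both by edgeR. CRELD2 had 59.6, 53.9, 37.0 and 54.1 FPKM in WT (vehicle 1 and 2, SI-2 1 and 2) and 38.0, 24.2, 30.2 and 21.2 FPKM in BR in the same order. HSPA5 had 218, 221, 158 and 206 FPKM in WT and 162, 76.6, 160 and 73.2 FPKM in BR. For both genes the 2 replicate 2 libraries of BR were the lowest of the 8, and without BR SI-2 2 the differences of CRELD2 and HSPA5 were -0.73 and -0.60.

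Library by library, the low values lay in those replicate 2 libraries. Each of the 28 genes lay below its own 8-library mean in BR vehicle 2 and in BR SI-2 2, with median deviations of -0.59 and -0.67 on the log2 scale, whereas BR vehicle 1 and BR SI-2 1 had medians of 0.20 and -0.018. All 28 lay above their mean in WT vehicle 1 (median 0.48). Within BR, 27 of 28 had both replicate 1 libraries above both replicate 2 libraries, a pattern met by 29.6% of all genes. In WT the same was true of 5 of 28, against 28.1% of all genes. Without BR SI-2 2, 27 of 28 genes were still lower in BR and 12 had an unadjusted p under 0.05 (5.89% of all genes in that direction), with a median of -0.313. BR vehicle 2, which had the same low values, had a summed stromal marker level of 0.34 FPKM, within the range of the other libraries, and the cause of the low values was not tested.

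**Figure D3:**
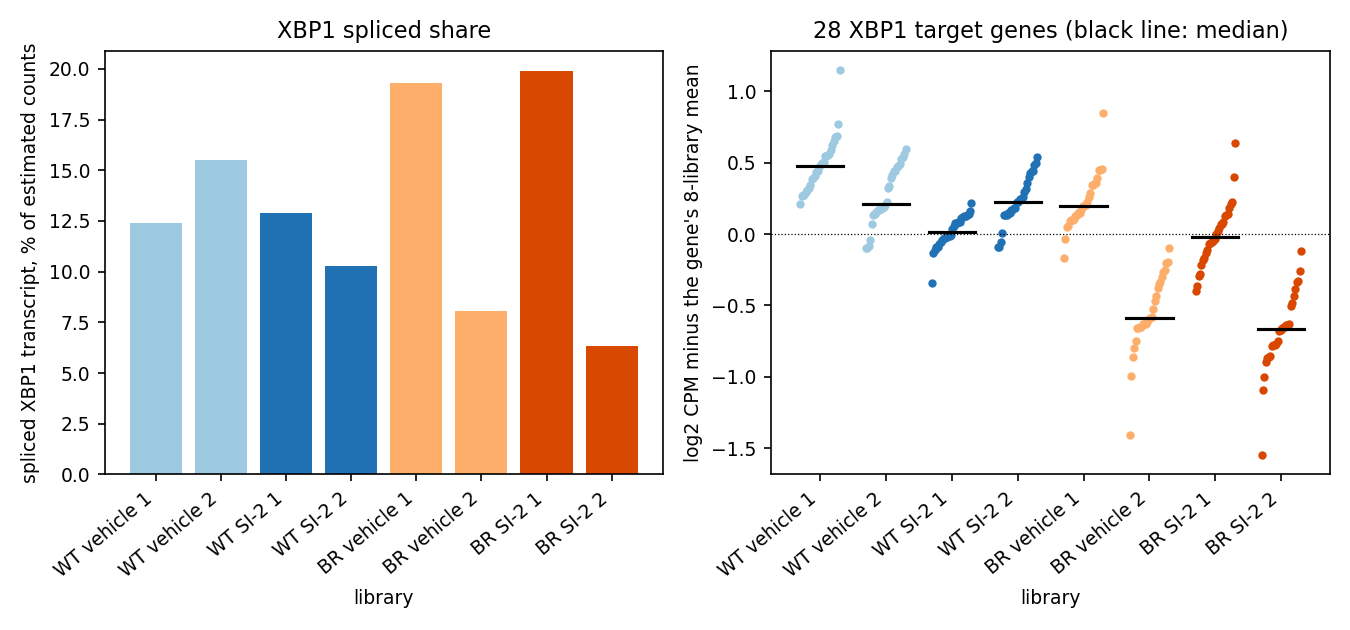
Left, share of spliced transcripts among estimated XBP1 counts in each library (bars, percent). Right, log2 CPM of 28 XBP1 target genes minus each gene's 8-library mean (points, with a black line at the median), where every gene is below 0 in BR vehicle 2 and BR SI-2 2.

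Under SI-2, 26 of 28 XBP1 target genes had a lower mean than under vehicle in BR (median -0.201) and 27 of 28 in WT (median -0.245), and none had an unadjusted p under 0.05 in either line. The direction in BR turned without BR SI-2 2, where 20 of 28 XBP1 target genes were higher (median 0.0728), and without BR vehicle 1, where 25 of 28 were higher (median 0.196). WT SI-2 1 and BR SI-2 1 lay below the replicate 1 vehicle libraries of their lines (medians 0.011 and -0.018, against 0.48 and 0.20), while the replicate 2 libraries of the 2 treatments were close to each other within each line.

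Promoters were compared because XBP1 and its target genes were low in the same 2 libraries. RefSeq promoter sequences (GRCh38.p14, from 250 bases before to 50 bases after each gene start) matched 7 of the 10 factors and 25 of the 28 XBP1 target genes. The endoplasmic reticulum stress response element (ERSE), searched on both strands as CCAAT and CCACG with 9 bases of any kind between them, was present in the promoter of 1 factor, XBP1, and of 3 target genes, CRELD2, HSPA5 and PDIA6. In all, 27 of 35116 promoters, or 0.0769%, held it. Each window is printed on the strand of its gene with 20 bases on each side of the element, which is in capitals. In XBP1 it spans bases -52 to -34 before the gene start, in HSPA5 bases -66 to -48, in PDIA6 bases -86 to -68 and in CRELD2, where it runs on the opposite strand, bases -80 to -62. The windows are XBP1 at chr22:28800583-28800641 (minus strand), HSPA5 at chr9:125241371-125241429 (minus), PDIA6 at chr2:10812833-10812891 (minus) and CRELD2 at chr22:49918534-49918592 (plus).

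XBP1: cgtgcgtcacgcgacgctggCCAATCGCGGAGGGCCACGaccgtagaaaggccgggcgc
HSPA5: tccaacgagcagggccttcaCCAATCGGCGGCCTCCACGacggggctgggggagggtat
PDIA6: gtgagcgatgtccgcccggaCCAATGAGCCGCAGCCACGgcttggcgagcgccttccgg
CRELD2: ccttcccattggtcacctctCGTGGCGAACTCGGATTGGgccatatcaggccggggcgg

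A second element of the same response, TGACGTGG, was found in 0 factors and in 4 target genes (HYOU1, KDELR3, SRP19 and SSR3), against 0.729% of all promoters. The E-box CACGTG, which MYC and MAX bind, was in 0 of the 7 factor promoters and in 4 target genes (7.26% of all promoters). An interferon-type element bound by IRF and BLIMP1 proteins (GAAA, 2 bases of any kind, GAAA) was in 0 factors and 1 target gene, SEC23B (3.57% of all), and the octamer ATGCAAAT in 0 of both (1.77% of all). A match is a run of letters in a window and no evidence of binding. The target genes were listed as XBP1 targets beforehand, so matches in them can follow from that choice. Whether these elements bear on the low values was not tested. MYC, IKZF3 and POU2AF1 had no promoter examined here.

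Of 20 genes that mark secretory plasma cells, 19 were tested. In BR, 15 had a lower and 4 a higher mean than in WT, with a median log2 difference of -0.145, and 6 had an unadjusted p under 0.05, all lower, against 8.08% of all genes in that direction. The largest differences among these were those of FKBP11, a prolyl isomerase of the endoplasmic reticulum, at -0.90 ± 0.174 (adjusted p 0.0649), and MZB1 at -0.67 ± 0.202 (adjusted p 0.201), both by edgeR. FKBP11 had 148, 143, 107 and 140 FPKM in WT and 89.3, 69.9, 75.9 and 57.4 FPKM in BR, without overlap, as in 4.36% of all genes in that direction. MZB1 had 657, 572, 419 and 522 FPKM in WT and 467, 304, 352 and 262 FPKM in BR, where BR vehicle 1 exceeded WT SI-2 1. With BR SI-2 2 left out, the differences of FKBP11 and MZB1 were -0.78 and -0.54 (adjusted p 0.147 and 0.413), and 6 of the 19 plasma cell genes again had an unadjusted p under 0.05, all lower. Among surface markers, SDC1 had a mean of 9.17 ± 2.37 FPKM in WT and 6.40 ± 1.07 FPKM in BR (SD, n = 4 each), TNFRSF17 had 291 ± 93.7 and 275 ± 8.41 FPKM, and CD38 had 39.0 ± 6.55 and 43.7 ± 14.2 FPKM. JCHAIN and ELL2 were not lower in BR by mean FPKM. JCHAIN had 3170 ± 804 in WT and 3540 ± 217 in BR, and ELL2 had 80.5 ± 25.3 and 101 ± 16.5.

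POU2AF1 encodes OCA-B, the coactivator that binds octamer proteins at immunoglobulin promoters. Its CPM values were 349 and 263 for WT vehicle, 297 and 262 for WT SI-2, 349 and 262 for BR vehicle, and 304 and 263 for BR SI-2. Replicate 1 exceeded replicate 2 in each of the 4 conditions, and the values of the 2 lines nearly coincided library by library. The log2 difference of BR against WT was 0.0084 ± 0.128 (95% interval -0.27 to 0.29, adjusted p 0.982 by edgeR), which leaves room for changes up to 1.22-fold. SI-2 gave -0.11 ± 0.203 in BR and -0.13 ± 0.203 in WT. The line difference was 0.058 and the SI-2 value in BR -0.0058 without BR SI-2 2. The curated transcript NM_006235 took 43.2% ± 4.66 (SD, n = 8) of its estimated counts, and predicted transcripts took most of the rest.

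IKZF1 (Ikaros) and IKZF3 (Aiolos), the zinc-finger factors degraded in the presence of lenalidomide, were the least abundant of the expressed factors. IKZF1 had CPM values of 119 and 122 for WT vehicle, 148 and 133 for WT SI-2, 122 and 150 for BR vehicle, and 156 and 146 for BR SI-2. The 2 WT vehicle libraries and BR vehicle 1 were the lowest, at 119 to 122 CPM. The log2 difference of BR against WT was 0.14 ± 0.108 (95% interval -0.10 to 0.38, adjusted p 0.582 by edgeR). For SI-2 it was 0.15 ± 0.159 in BR and 0.22 ± 0.159 in WT. Leaving out BR SI-2 2 gave 0.13 between the lines and 0.19 for SI-2 in BR.

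IKZF3 varied the most among the expressed factors, with a coefficient of variation of 24.3% in FPKM. It had CPM values of 158 and 167 for WT vehicle, 243 and 187 for WT SI-2, 138 and 231 for BR vehicle, and 182 and 250 for BR SI-2. Both WT SI-2 libraries exceeded both WT vehicle libraries, whereas in BR the replicate 2 libraries were high under vehicle and SI-2 alike. The difference under SI-2 was 0.41 ± 0.262 in WT (1.32-fold, 95% interval 0.878 to 2.00) and 0.23 ± 0.262 in BR on the log2 scale, neither past the threshold in edgeR. BR against WT gave 0.087 ± 0.192 with an adjusted p of 0.858. Both turned without BR SI-2 2, to -0.039 between the lines and -0.014 for SI-2 in BR. The transcript estimates did not resolve either gene, since the leading transcript held 8.34% of the IKZF1 counts among 42 listed and 10.1% of the IKZF3 counts among 16.

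The remaining Ikaros family members and the cereblon ligase that targets IKZF1 and IKZF3 gave no call. Of 8 genes, 3 had a higher and 5 a lower mean in BR, with log2 differences from -0.156 to 0.151 and none at an unadjusted p under 0.05. CRBN, the substrate receptor that binds lenalidomide, had 19.1 ± 1.6 FPKM in WT and 17.7 ± 2.42 FPKM in BR (SD, n = 4 each), a log2 difference of -0.13 ± 0.12. DDB1, its adaptor in the ligase, had -0.16 ± 0.179. The adjusted p was 0.634 and 0.707 by edgeR.

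MYC, the growth regulator that amplifies ribosome production and metabolism, had CPM values of 716 and 772 for WT vehicle, 744 and 920 for WT SI-2, 818 and 915 for BR vehicle, and 878 and 922 for BR SI-2. The lowest of the 8 were 3 WT libraries, and WT SI-2 2 lay among the BR values. The log2 difference of BR against WT was 0.17 ± 0.0976 (1.12-fold, 95% interval 0.966 to 1.30, adjusted p 0.467 by edgeR). Under SI-2 it was 0.055 ± 0.152 in BR and 0.16 ± 0.152 in WT. When BR SI-2 2 was left out, the line difference was 0.14 and the SI-2 value in BR 0.019. NM_002467 took 74.8% ± 4.54 and NM_001354870 took 25.2% ± 4.54 of its estimated counts (SD, n = 8).

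Genes that MYC is known to activate gave no call. Of 24 tested, 16 had a higher and 8 a lower mean in BR (median 0.161), and 8 of the higher and 2 of the lower had an unadjusted p under 0.05, against 6.29% and 8.08% of all genes. NOP56, a component of the snoRNP that modifies ribosomal RNA, was at 0.44 ± 0.139 (adjusted p 0.212) and SRM, spermidine synthase, at -0.46 ± 0.254 (adjusted p 0.434), both by edgeR, or 0.36 and -0.35 without BR SI-2 2. Without BR SI-2 2 the counts of MYC target genes at an unadjusted p under 0.05 were 4 higher and 1 lower, against 4.22% and 5.89% of all genes, with a median of 0.166. Under SI-2 the means of 22 of 24 in BR and 21 of 24 in WT were below those under vehicle (medians -0.122 and -0.085), with none at an unadjusted p under 0.05. Without BR SI-2 2 the median of the MYC target genes in BR was -0.133. Their summed FPKM in BR was 4179.9 and 3733.3 under vehicle and 3634.2 and 3782.6 under SI-2 (replicates 1 and 2), lower under SI-2 in replicate 1 alone. In WT it was 3854.7 and 4019.9 under vehicle and 3479.4 and 3833.5 under SI-2, lower in both. The 11 partners and antagonists of MYC, such as MAX and MNT, had 5 higher and 6 lower means in BR and a median of -0.0013, with the largest differences among those of at least 5 FPKM at -0.20 ± 0.214 for MYCN and -0.20 ± 0.2 for MNT.

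MAF, a leucine-zipper oncogene of myeloma that raises CCND2 and adhesion genes, had CPM values of 222 and 295 for WT vehicle, 218 and 334 for WT SI-2, 338 and 302 for BR vehicle, and 382 and 313 for BR SI-2. The 2 replicate 1 libraries of WT were the lowest and WT SI-2 2 exceeded 2 of the BR libraries, so that the lines overlapped. Their mean was 267 ± 56.9 CPM in WT and 334 ± 35.8 CPM in BR (SD, n = 4 each), and the log2 difference was 0.32 ± 0.147 (95% interval -0.0056 to 0.64, adjusted p 0.355 by edgeR). It was 0.35 without BR SI-2 2. SI-2 gave 0.12 ± 0.233 in BR, or 0.26 without BR SI-2 2, and 0.095 ± 0.233 in WT. NM_001031804 took 75.6% ± 2.45 of its estimated counts and NM_005360 took 16.1% ± 1.86 (SD, n = 8).

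Genes attributed to MAF in myeloma gave no call. Of 6 tested, 4 had a higher and 2 a lower mean in BR (median 0.129), and 2 had an unadjusted p under 0.05, both higher, against 6.29% of all genes in that direction. Among the abundant ones, CCND2, the cyclin, had 156 ± 24.8 FPKM in WT and 168 ± 4.33 FPKM in BR (SD, n = 4 each), DEPTOR, an inhibitor of mTOR, had a log2 difference of 0.18 ± 0.148, and ITGB7, the integrin of stromal adhesion, had -0.18 ± 0.235. The adjusted p was 0.604 for DEPTOR and 0.751 for ITGB7 by edgeR, and without BR SI-2 2 their differences were 0.25 and -0.032. Among 5 relatives of MAF, 2 had a higher and 3 a lower mean in BR, with MAFF at -0.56 ± 0.187 (adjusted p 0.233) and MAFG at -0.31 ± 0.119 (adjusted p 0.276), both small MAF proteins that lack an activation domain.

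PAX5, the commitment factor of B cells that plasma cells silence, had 1 count in BR vehicle 1 and 0 counts in the other 7 libraries, where a count of 0 allows up to 3 counts (0.156 to 0.171 CPM, counting error only). Several B cell genes that PAX5 sustains were at or near 0 as well. MS4A1 (CD20) ranged from 0 to 0.03 FPKM, CD79A from 0 to 0.22 FPKM and CD79B from 0 to 0.06 FPKM, and 5 of the 15 genes of this list found in the table had at most 3 counts in every library. The labels give the cell type as B lymphoblast, and MS4A1, CD79A and CD79B were thus almost absent. Other genes of the list were detected, with means of 1.45 FPKM for CR2, 1.22 FPKM for BLNK (a B cell adaptor) and 1.02 FPKM for CD83, and BLK, a B cell tyrosine kinase, had the highest at 12.6 FPKM, with a log2 difference of 0.067 ± 0.204 between BR and WT. Of 6 genes of this list tested, 2 had a higher and 4 a lower mean in BR, and 2 of the lower had an unadjusted p under 0.05, against 8.08% of all genes in that direction.

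BCL6, the germinal centre repressor opposed by PRDM1, was scarce. Its estimated counts were 4 and 28 for WT vehicle, 14 and 23 for WT SI-2, 7 and 10 for BR vehicle, and 33 and 39 for BR SI-2, or 0.06 to 0.60 FPKM. Both BR SI-2 libraries exceeded the other 6 libraries, and the 2 WT vehicle libraries spanned the whole range of those 6. SI-2 against vehicle in BR gave a log2 difference of 2.03 ± 0.698 (4.09-fold, 95% interval 1.37 to 12.2), with an unadjusted p of 0.0174 in the model and an adjusted p of 1 by edgeR, which does not pass. BCL6 was the 1 factor with an unadjusted p under 0.05 in this comparison, against 0.885% of all genes in the higher direction. Without BR SI-2 2, the library with stromal transcripts, it was 1.95 with an unadjusted p of 0.0504. BR SI-2 1, with 33 counts, had a summed stromal level of 0.29 FPKM, and the part of these transcripts in the BCL6 result was not tested. In WT the difference was 0.20 ± 0.679, and the contrast of the 2 SI-2 effects was 1.84 ± 0.979 with an adjusted p of 1, where 0.374% of all genes had a higher value at an unadjusted p under 0.05. That contrast depended on WT vehicle 2, without which it was -0.12.

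Germinal centre genes and the wider set of B cell factors gave no call. Of 6 germinal centre genes tested, 3 had a higher and 3 a lower mean in BR and none had an unadjusted p under 0.05; MYBL1 had a log2 difference of 0.30 ± 0.231 and BACH2 0.27 ± 0.131. Of 8 B cell factors, 6 had a higher and 2 a lower mean in BR. BACH2 is counted in both lists, and SPIB and IRF8 are also among the partners of IRF4 above. ETS1, which restrains plasma cell formation, was the 1 with an unadjusted p under 0.05 (6.29% of all genes in that direction), at 14.4, 13.5, 18.0 and 13.0 FPKM in WT and 18.1, 20.9, 23.0 and 21.2 FPKM in BR. The BR libraries all lay above the WT libraries for ETS1, as in 3.79% of all genes in that direction, and its log2 difference was 0.46 ± 0.119 with an adjusted p of 0.145 by edgeR, or 0.47 without BR SI-2 2. CIITA, which PRDM1 represses in plasma cells, was present at 17.7 FPKM. Of the markers of other cells, 2 T and NK genes and 1 monocyte gene (LYZ) were tested, none with an unadjusted p under 0.05, and no stromal gene passed the filter in this fit.

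Because both replicate 2 libraries of BR were low in XBP1, the lines were also compared within each replicate number, a split chosen from these values, so that its results for XBP1 and its target genes restate what prompted it and are given as descriptions. Among the replicate 1 libraries, 2 BR against 2 WT, no gene passed an adjusted p under 0.05 (0% of 13505 genes), with MAF at 0.71 ± 0.127 and an unadjusted p of 9.75e-04 in the edgeR model. Among the replicate 2 libraries 6232 of 13698 genes passed, or 45.5%, and 5 of the 9 factors were among them. XBP1 was at -0.67 ± 0.0565, PRDM1 at -0.29 ± 0.0565, IRF4 at -0.23 ± 0.046, IKZF1 at 0.23 ± 0.0576 and IKZF3 at 0.45 ± 0.0664, with MAF at -0.022 ± 0.0628. A share of 5 in 9 is near that background. In both splits, each side held 1 vehicle and 1 SI-2 library of the same line and number. The difference between replicates 2 and 1 correlated between vehicle and SI-2 within each line (r of 0.545 in WT and 0.483 in BR). The 2 libraries of a side may therefore not be independent, and the SE and the calls may understate the spread between cultures. XBP1 was at 0.025 ± 0.133 and IKZF3 at -0.32 ± 0.236 in the replicate 1 libraries. The 28 XBP1 target genes had a median of -0.868 in the replicate 2 libraries (28 lower) and -0.141 in the replicate 1 libraries (24 lower). With the 2 replicate 2 libraries of BR left out, 6 genes passed (0.0437%) and none was a factor, and 23 of the 28 XBP1 target genes were lower with a median of -0.124. Of these, 4 had an unadjusted p under 0.05, against 6.04% of all genes in that direction. Why the replicate numbers differ was not tested.

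**Figure D4:**
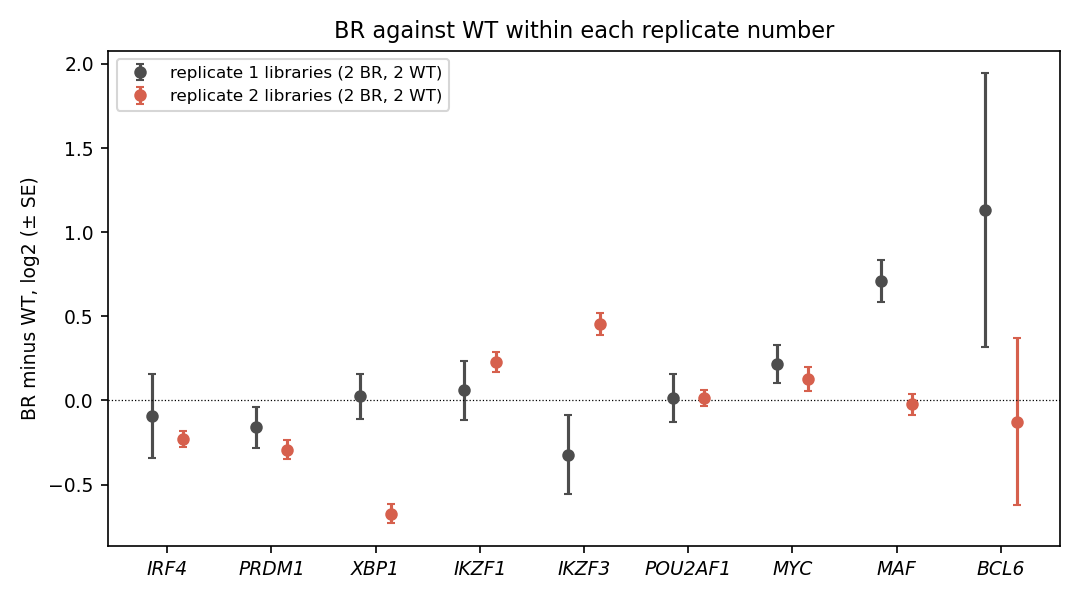
Log2 difference of BR minus WT (± SE) for the 9 tested factors, fitted in the replicate 1 libraries (grey, 2 against 2) and in the replicate 2 libraries (red, 2 against 2). XBP1 is at 0.025 in the first and -0.67 in the second set, and MAF at 0.71 and -0.022.

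Across the 8 libraries the expressed factors varied in recurring combinations, which are given as descriptions because the libraries share their line, depth and scaling. IRF4 and POU2AF1 had a Pearson r of 0.881 in log2(CPM + 1), PRDM1 and XBP1 0.788, IKZF1 and IKZF3 0.776 and MYC and MAF 0.764. IRF4 was opposed to IKZF3 (-0.784) and IKZF1 (-0.767), XBP1 to IKZF3 (-0.755) and PRDM1 to MYC (-0.768). Among 6392 genes of at least 10 FPKM, the nearest to XBP1 were ST13 (r = 0.992) and EIF3K (0.986), and the nearest to IRF4 were GLE1 (0.989) and AGA (0.988). POU2AF1 was nearest to ATF6B and UBE2J1 (0.994 each) and PRDM1 to SSR3 and SEC22B (0.976 each). IKZF1 was nearest to CD2AP (0.988) and RELB (0.98), and IKZF3 to METTL5 (0.978) and USP28 (0.974). MYC was nearest to SPG7 (0.952) and WDTC1 (0.941), and MAF to SBNO2 (0.973) and a gene listed only by its number, 105369230 (0.968). These neighbours were picked as the highest among 6392 genes over 8 libraries, so a high r can come from that selection alone.

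**Figure D5:**
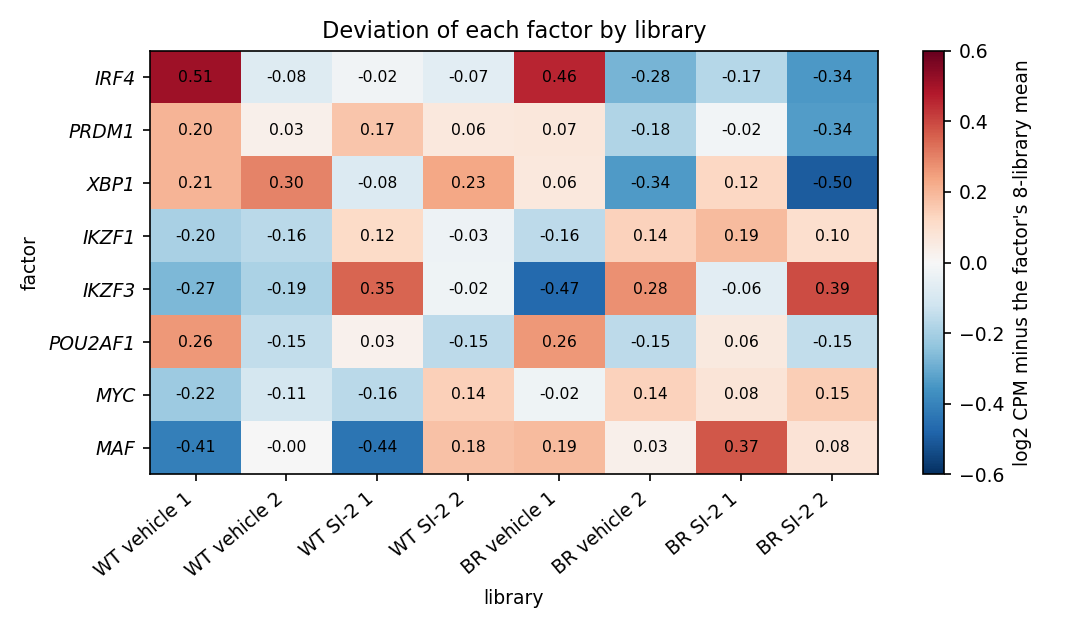
Log2 CPM of the 8 expressed factors minus each factor's 8-library mean, with the value in each cell (red above, blue below). IRF4 is highest in WT vehicle 1 and BR vehicle 1, and XBP1 is lowest in BR SI-2 2 and BR vehicle 2.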

How the data were processed

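RNA of 8 LP-1 samples was sequenced by the study. The authors deposited a gene table and a transcript table with estimated counts and FPKM per library. The submitters' processing notes name BWA, Bowtie2, RSEM and hg19, without their roles, and versions are not given in the sources used here. The deposited estimated counts (expected counts, 8884 of 18564 genes whole in every library) were rounded. The deposited FPKM, which the authors scaled by transcript length and library size, were used for levels between genes. Columns of condition means and of the authors' own comparisons (fold changes and p-values) were not used.

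Counts were tested with edgeR 4.0.16 (R 4.3.3): TMM scaling (factors 0.9708 to 1.058), filterByExpr with a minimum count of 10, the quasi-likelihood F-test and Benjamini-Hochberg adjustment over all genes tested, with a threshold of 0.05. BR against WT used 2 groups of 4, and all other comparisons used 1 fit of 4 conditions (biological coefficient of variation 0.179). The spliced XBP1 share was tested with an exact permutation test over libraries. Alternatives were other scalings, no filter, DESeq2 1.42.0, limma 3.58.1 on log2(FPKM + 1) and log2(FPKM + 0.1), a replicate block, treatment as a term, only the libraries compared, and each library left out. Splits by replicate number were added after the data were seen.

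The 10 factors and the 15 other gene lists were chosen with earlier results of these data known. From each list the 2 genes with the largest difference of BR against WT at a mean of at least 5 FPKM were named, plus any gene called and a few abundant or marker genes. For likeness, the 2 genes with the highest r at 10 FPKM or more were named. The scripts were tested on simulated data. Replicate numbers were not taken as pairs. Estimated counts of overlapping transcripts depend on how RSEM divides reads, and library sizes were close, so that counting error is small for all factors but BCL6 and PAX5. Some genes of these lists are not reported here.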

Additional observations from a re-analysis of the deposited data

Results flagged for a closer look

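A pair of values stood apart from the other libraries of their line. IRF4 in BR vehicle 1 was 1269 CPM, whereas the other 3 BR libraries held 729 to 820 CPM, and the gap to the nearest was 0.831 of the whole range, above the limit of Dixon's outlier test for 4 libraries. IRF4 in WT vehicle 1 was 1315 CPM against 876 to 911 CPM in the other 3 WT libraries, with a gap of 0.92 of the range. In all, 20 groups of 4 libraries were examined, and chance alone gives about 1 such value in 20 groups. Both libraries are replicate 1 of a vehicle condition, and POU2AF1 was also highest in these 2, at 349 CPM each. The cause was not tested.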

How the results depend on the processing

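No factor passed the threshold in any of the 5 comparisons under any alternative setting other than the splits by replicate number, and the smallest adjusted p was 0.148, for PRDM1 between BR and WT with the replicate block. Of 350 log2 differences of single factors under the alternatives other than these splits and leaving out a library, 337 kept their sign. The 13 that did not were close to 0. For POU2AF1 the BR against WT value became -0.011 with upper-quartile scaling, and under vehicle it became 0.017 with scaling by library size, 0.0063 with no filter, 0.0041 with DESeq2, 0.036 with limma on log2(FPKM + 1) and 0.037 on log2(FPKM + 0.1). For PRDM1 under SI-2 in WT it became 0.017 with scaling by library size, 1.7e-05 with no filter, 1.67e-04 with the replicate block, 8.79e-04 with DESeq2, 0.017 with both limma fits and 0.0012 with only the 4 libraries compared.

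Leaving out each library in turn reversed 53 of 360 values, and the lowest adjusted p was 0.180. For BR against WT over both treatments, the range was -0.37 to 0.0086 for IRF4, -0.039 to 0.23 for IKZF3, -0.084 to 0.11 for POU2AF1 and -0.071 to 0.65 for BCL6. Under vehicle alone, the range was -0.51 to 0.22 for IRF4, -0.24 to 0.52 for IKZF3, -0.21 to 0.22 for POU2AF1 and -1.72 to 1.02 for BCL6. For SI-2 in BR, the range was -0.72 to 0.011 for IRF4, -0.29 to 0.035 for PRDM1, -0.39 to 0.25 for XBP1, -0.0064 to 0.30 for IKZF1, -0.11 to 0.65 for IKZF3, -0.30 to 0.10 for POU2AF1, -0.036 to 0.13 for MYC and -0.040 to 0.26 for MAF. For SI-2 in WT, the range was -0.55 to 0.035 for IRF4, -0.085 to 0.089 for PRDM1, -0.32 to 0.088 for POU2AF1, -0.24 to 0.37 for MAF and -0.59 to 2.14 for BCL6. For the contrast of the SI-2 effects, the range was -0.44 to 0.30 for IRF4, -0.29 to 0.038 for PRDM1, -0.22 to 0.41 for XBP1, -0.23 to 0.078 for IKZF1, -0.51 to 0.24 for IKZF3, -0.21 to 0.23 for POU2AF1, -0.26 to 0.041 for MYC, -0.25 to 0.35 for MAF and -0.12 to 2.62 for BCL6. The spliced XBP1 share differed by -1.56 to 2.96 percentage points, and reversed without WT SI-2 2, BR vehicle 1 or BR SI-2 1. Its difference was 0.607 points from FPKM values, and with the replicate block its exact permutation p was 0.944.

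In the splits added after the data were seen, 5 factors were called with only the replicate 2 libraries. The sign reversed for IRF4 (0.068) and IKZF3 (-0.24) with the BR replicate 2 libraries left out, for XBP1 (0.025) and IKZF3 (-0.32) with only the replicate 1 libraries, and for MAF (-0.022) and BCL6 (-0.13) with only the replicate 2 libraries. The cause was not tested. The number of all genes called between BR and WT was 49 and became 155 with the replicate block, 399 with DESeq2, 0 with only the replicate 1 and 6232 with only the replicate 2 libraries, 6 with the BR replicate 2 libraries left out and 21 to 125 with each library left out. Under vehicle it was 0 and ranged up to 28, with DESeq2. SI-2 against vehicle in BR gave 67 without BR SI-2 1 in place of 0. Same-number deviations correlated within each line (0.545 in WT, 0.483 in BR) but from -0.214 to 0.210 between the lines. The numbers were therefore not taken to pair all libraries. The block changed no call of a factor. It fits 1 replicate effect common to both lines, so it cannot account for a likeness that differs between lines. If same-number libraries of a line are not independent, the tests of 4 against 4 libraries and the permutation test count too many units. The SI-2 tests used no pairing within a line. Depth limits BCL6, with 4 to 39 counts, and PAX5.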

Other observations

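Several genes of low level, chosen after their values were seen, had unadjusted p-values under 0.05 between BR and WT without passing the adjustment. POU2F2, which encodes the octamer protein Oct-2 that POU2AF1 binds, had 0.15, 0.19, 0.23 and 0.17 FPKM in WT (vehicle 1 and 2, SI-2 1 and 2) and 0.21, 0.25, 0.27 and 0.30 FPKM in BR, a log2 difference of 0.81 ± 0.202 (SE, fitted to counts) with an adjusted p of 0.138 by edgeR. The MAF target genes CX3CR1, a chemokine receptor, and NUAK1, a kinase, were at 1.18 ± 0.244 and 0.69 ± 0.183, with BR libraries above all WT libraries for both (as in 3.79% of all genes) and adjusted p of 0.0759 and 0.156 by edgeR. CR2 (CD21), a complement receptor of B cells, was at -0.93 ± 0.23 with 1.24 to 2.70 FPKM in WT and 0.91 to 1.09 FPKM in BR, and an adjusted p of 0.136 by edgeR.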
